A study of Homo sapiens with 6 samples.

Results

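The genes described here encode 9 secreted inflammatory mediators: the interleukin-1 cytokines IL1A and IL1B, their natural antagonist IL1RN, the CXC chemokines CXCL1, CXCL2, CXCL3 and CXCL8, the cytokine IL6 and the CC chemokine CCL20. They were picked by symbol, through the Entrez gene ID of each row, from a table of 23459 genes. All 9 were in the table, and 7 had enough counts to be tested. The count of each was compared between MCF10A cells depleted of YAP and TAZ and control cells.

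MCF10A is an untransformed human mammary epithelial line. Both groups were grown in the same medium with horse serum, insulin, hydrocortisone, cholera toxin and EGF, and both received siRNA at 20 nM by lipofection. The siCtrl group (3 libraries) received a non-targeting siRNA, and the siYAP/TAZ group (3 libraries) received siRNA against YAP and against TAZ, the product of WWTR1. Neither group carried an introduced allele, and the hours between transfection and harvest are not given in the sources used here. The comparison asks how the RNA of these genes differs when the transcriptional coactivators YAP and TAZ are depleted. In such bulk libraries, fewer cells of a type and less RNA per cell cannot be told apart.

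Interleukin-1 alpha and beta bind the same receptor, which with its accessory protein recruits MYD88 and IRAK kinases and activates NF-kB and AP-1. These factors raise transcription of the CXC chemokines, of IL6 and CCL20, and of the interleukin-1 genes themselves, so that the group is often induced together in epithelia. The CXC chemokines of this group attract neutrophils through the receptors CXCR1 and CXCR2, CCL20 attracts lymphocytes and dendritic cells through CCR6, and the receptor antagonist encoded by IL1RN occupies the interleukin-1 receptor without starting a signal. YAP and TAZ bind DNA through TEAD factors, often at sites that also hold AP-1.

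The stretches just upstream of the annotated starts are shown because they place matches to a short motif for each of NF-kB, AP-1 and TEAD in the same coordinates for all members. RefSeq promoter sequences (GRCh38.p14) were matched for 9 of the 9 genes, and 250 bases before each start were searched on both strands. The motifs searched were GGANTTTCC for NF-kB, TGANTCA for AP-1 and GGAATG for TEAD, and no match overlapped a match to another motif. Sites of these factors with other letters were not searched for, so a stretch in lower case may still hold such a site. Within the same length before all 27305 promoters of the table, 1.43% held the NF-kB motif, 6.84% the AP-1 motif and 12.1% the TEAD motif. The last 120 bases before the start follow for IL1A (chr2:112784401-112784520, minus strand), CXCL1 (chr4:73869273-73869392, plus strand), CXCL2 (chr4:74099196-74099315, minus strand), CXCL3 (chr4:74038690-74038809, minus strand), CXCL8 (chr4:73740449-73740568, plus strand) and CCL20 (chr2:227813722-227813841, plus strand), 5′ to 3′ along the gene, with motif matches in capitals.
IL1A: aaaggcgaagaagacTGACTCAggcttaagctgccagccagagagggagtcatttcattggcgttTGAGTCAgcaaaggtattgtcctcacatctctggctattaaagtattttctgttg
CXCL1: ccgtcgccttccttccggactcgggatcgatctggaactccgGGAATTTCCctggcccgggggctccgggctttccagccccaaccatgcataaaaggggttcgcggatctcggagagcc
CXCL2: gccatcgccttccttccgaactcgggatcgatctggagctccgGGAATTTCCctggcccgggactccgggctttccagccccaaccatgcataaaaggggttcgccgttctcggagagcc
CXCL3: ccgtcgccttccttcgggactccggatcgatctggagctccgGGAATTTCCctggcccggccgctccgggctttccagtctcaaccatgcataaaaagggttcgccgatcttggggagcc
CXCL8: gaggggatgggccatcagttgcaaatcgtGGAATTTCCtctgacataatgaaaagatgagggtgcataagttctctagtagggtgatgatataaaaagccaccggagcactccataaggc
CCL20: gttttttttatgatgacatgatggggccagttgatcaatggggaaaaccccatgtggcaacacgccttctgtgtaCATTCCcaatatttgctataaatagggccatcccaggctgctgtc

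The capitals mark an NF-kB match in CXCL1, CXCL2, CXCL3 and CXCL8, the pair of AP-1 matches in IL1A, and a TEAD match on the minus strand in CCL20. The NF-kB match began 78 bases before the start in CXCL1 and CXCL3, 77 bases before it in CXCL2 and 91 bases before it in CXCL8. CXCL8 also held an AP-1 match, from 137 to 131 bases before the start, upstream of the stretch shown, and IL6 held an NF-kB match from 72 to 64 bases before its start. No match to any of the motifs lay in the window of IL1B or IL1RN. The stretches of CXCL1, CXCL2 and CXCL3 were near copies, with 93.4% of aligned positions identical between CXCL1 and CXCL2, 90.8% between CXCL1 and CXCL3 and 88.4% between CXCL2 and CXCL3, against 43.6% between CXCL1 and CXCL8. These matches describe letters in a window and say nothing of binding in these cells.

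**Figure D1:**
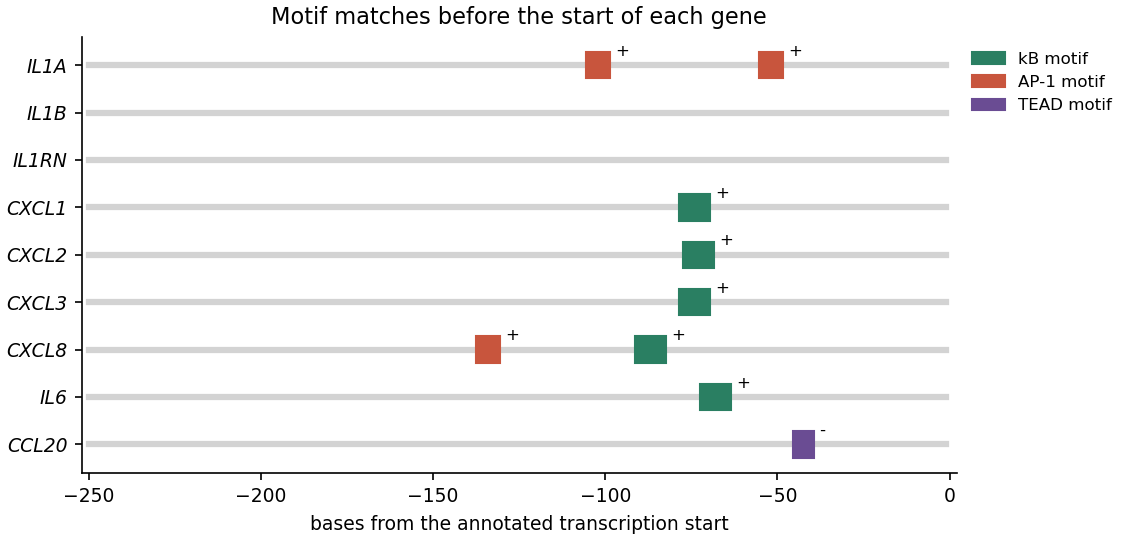
Motif matches (boxes) in the 250 bases before the annotated start of each of the 9 genes, drawn by distance from the start in bases, with the strand of each match beside it. The NF-kB matches of CXCL1, CXCL2, CXCL3, CXCL8 and IL6 sit between 91 and 64 bases before the start, and IL1B and IL1RN hold no match.

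For 2 libraries the labels disagree. The groups follow the sample description, which is also the name of the column in the count table. Under it siCtrl replicate 2 has a title that reads siYAP/TAZ, while siYAP/TAZ replicate 2 has a title that reads control. The genotype entries of both libraries also name the opposite group. In both of these libraries the targeted genes followed the description: YAP1 was at 204 CPM (counts relative to the library total after TMM scaling) in siCtrl replicate 2 and at 118 CPM in siYAP/TAZ replicate 2, and its mean fell from 201 ± 11.1 to 115 ± 3.25 CPM (SD, n = 3 each, log2 fold change -0.80, edgeR adjusted p = 0.0138). WWTR1 fell from 106 ± 4.02 to 65.8 ± 5.44 CPM (log2 fold change -0.69, edgeR adjusted p = 0.0311). Both calls were lost when siCtrl replicate 3 (adjusted p = 0.0988 for YAP1 and 0.135 for WWTR1), siYAP/TAZ replicate 2 (0.0606 and 0.107) or siYAP/TAZ replicate 3 (0.112 and 0.176) was left out, and that of WWTR1 also without siCtrl replicate 1 (0.0928) or siYAP/TAZ replicate 1 (0.0602). Over all genes, however, siCtrl replicate 2 lay nearer to siYAP/TAZ replicates 2 (chi-square per degree of freedom 8.57) and 3 (12.2) than to siCtrl replicates 1 (17.4) and 3 (14.1). Its value against siYAP/TAZ replicate 1 was 16.6. By the same measure siYAP/TAZ replicate 2 lay nearest to siYAP/TAZ replicate 3 (6.56). Totals were 3175149 to 4317286 counts per library, so a count of 0 allowed up to 0.695 to 0.945 CPM (3 counts, counting error only). All 8 basal epithelial markers were measured, with summed levels of 1894 to 2372 CPM in siCtrl and 1663 to 1909 CPM in siYAP/TAZ libraries. KRT5, the most abundant, was at 912 ± 74.2 and 661 ± 47.5 CPM (SD, n = 3 each, edgeR adjusted p = 0.131), and when libraries of the same replicate number were compared with each other (a replicate block in the fit) KRT5 was lower (log2 fold change -0.46, adjusted p = 0.023) and TP63 higher (0.59, adjusted p = 0.0379). All siYAP/TAZ libraries were below all siCtrl libraries for KRT5 and EGFR, and their part in the cytokine results was not tested. Of the leukocyte markers reported here, LYZ and FCGR3A were at 0 in every library, PTPRC had 2 to 10 counts and CD14 had 9 to 23. CSF1R was the exception at 708 to 1067 counts. The processed pseudogene RPL7P1 overlaps CSF1R on the opposite strand, and its part in the CSF1R count was not tested. PDGFRA, a fibroblast marker, had 551 to 683 counts, against 3 to 12 for COL1A1 and 0 for COL1A2. Another annotated protein-coding gene overlaps PDGFRA on the same strand, and its part in the PDGFRA count was not tested.

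IL1A was the 1 member that passed the test in the comparison by group alone, and it was lower after YAP and TAZ depletion. The other 6 tested members had negative log2 fold changes, from -1.57 for IL1B to -0.21 for CXCL2, and none of them passed. The median over the 7 tested members was a log2 fold change of -1.17, beside -0.000931 over all 12510 genes tested. Of all genes tested, 1.22% passed as lower and 0.743% as higher in that comparison, against 1 of 7 and 0 of 7 members. At an unadjusted edgeR p under 0.05 the members counted 4 lower (IL1A, IL1B, CXCL8 and CCL20) and 0 higher, beside 9.27% and 8.4% of all genes tested. DESeq2 called 2 lower (IL1A and CXCL8) and 0 higher, beside 2.57% and 1.96%. With that replicate block, 4 of 7 members passed as lower (IL1A, IL1B, CXCL8 and CCL20) and 0 of 7 as higher, beside 5.44% and 4.66% of all genes. For 1 of 7 members, IL1A, every siYAP/TAZ library lay below every siCtrl library, and 0 of 7 had every siYAP/TAZ library above. The shares of all genes tested were 11.1% and 11%, so this count was close to the background.

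**Figure D2:**
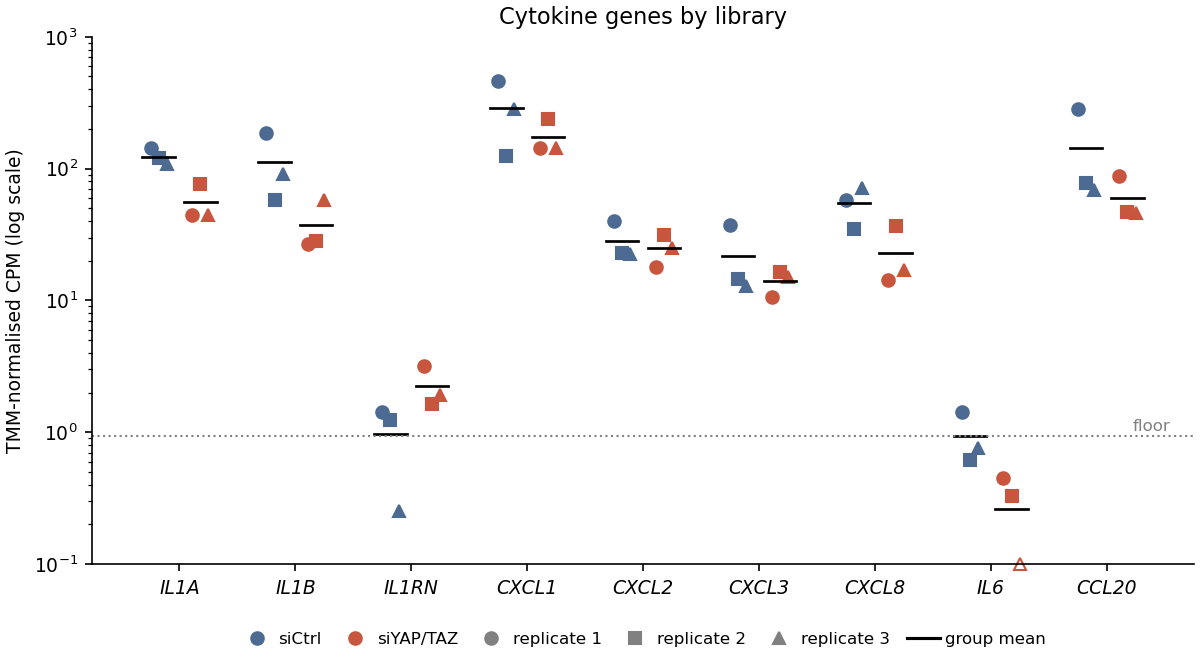
TMM-normalised CPM (log axis) of the 9 genes in each library, siCtrl in blue and siYAP/TAZ in red, with the replicate number given by the symbol, the group mean by a bar and the highest floor of a library by the dotted line. Only for IL1A among the 7 tested genes do the groups not overlap, siCtrl replicate 1 is the highest library for 6 of the 7, and the open symbol on the axis is an IL6 count of 0.

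Among the ligands, IL1A encodes interleukin-1 alpha, which epithelial cells hold as a precursor that is active without cleavage. Its gene lies at chr2:113531502-113542070 on the minus strand (hg19 coordinates, GENCODE 44 lifted over). IL1A had 497, 387 and 431 counts in siCtrl replicates 1, 2 and 3 and 196, 233 and 164 counts in siYAP/TAZ replicates 1, 2 and 3. All siYAP/TAZ libraries were below all siCtrl libraries, and the ratio was under 1 in 3 of 3 pairs of the same number. The level fell from 123 ± 17.6 to 55.3 ± 18.8 CPM (SD, n = 3 each), to 44.8% of control (log2 fold change -1.17, SE 0.22, 95% confidence interval -1.67 to -0.66, edgeR adjusted p = 0.0344, and 0.00256 with the replicate block). The call was lost when siCtrl replicate 1 (adjusted p = 0.103) or 3 (0.119) was left out, or siYAP/TAZ replicate 1 (0.0895) or 3 (0.188), while the log2 fold change stayed between -1.47 and -1.03 with any 1 library left out. Without both libraries of disagreeing labels it was -1.49 (edgeR adjusted p = 0.00136), and with the groups of the titles it was -0.66 (adjusted p = 0.898).

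IL1B encodes interleukin-1 beta, a precursor that caspase-1 cleaves to the active cytokine. It lies next to IL1A at chr2:113587328-113594393 on the minus strand. Its counts were 646, 187 and 363 in the siCtrl libraries and 118, 85 and 213 in the siYAP/TAZ libraries, in replicate order. The groups overlapped, because siCtrl replicate 2 (57.7 CPM) was just below siYAP/TAZ replicate 3 (57.9 CPM), although each siYAP/TAZ library was below the siCtrl library of the same number. The means were 111 ± 66.3 and 37.6 ± 17.6 CPM (SD, n = 3 each), a log2 fold change of -1.57 (SE 0.43, 95% confidence interval -2.53 to -0.61). This did not pass by group alone (edgeR adjusted p = 0.098) and passed with the replicate block (log2 fold change -1.50, adjusted p = 0.0161). Leaving out siCtrl replicate 2 gave -1.87 (adjusted p = 0.00693), and leaving out both libraries of disagreeing labels gave -1.71 (adjusted p = 0.0176). Without siCtrl replicate 1 the log2 fold change was -0.99 (edgeR adjusted p = 0.247), and with the groups of the titles it was -1.11 (adjusted p = 0.898).

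IL1RN, the receptor antagonist, lies at the other end of the same cluster, at chr2:113856892-113891593 on the plus strand. It had 5, 4 and 1 counts in the siCtrl libraries and 14, 5 and 7 counts in the siYAP/TAZ libraries, too few to pass the low-count filter. Those counts correspond to 0.974 ± 0.634 and 2.24 ± 0.815 CPM (SD, n = 3 each), against floors of 0.695 to 0.945 CPM. Every siYAP/TAZ library was above every siCtrl library in CPM, although siCtrl replicate 1 and siYAP/TAZ replicate 2 both had 5 counts. The difference did not pass in a fit with no low-count filter (log2 fold change 1.25, edgeR adjusted p = 0.417). The genes that lie between IL1B and IL1RN encode other members of the family. IL37, IL36G, IL36A, IL36B, IL36RN and IL1F10 had 0 to 3 counts in any library, below IL1A, IL1B and, in the siYAP/TAZ libraries, IL1RN.

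**Figure D3:**
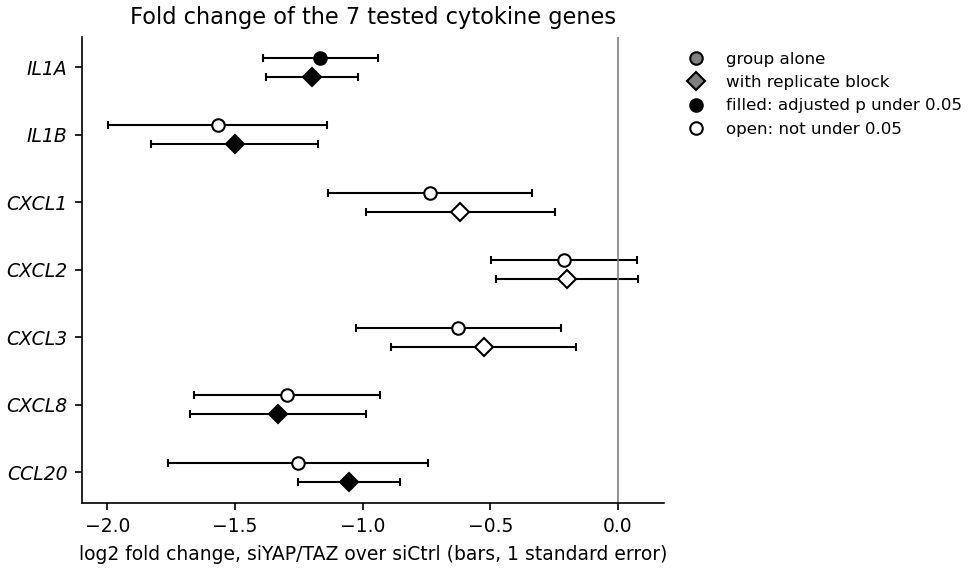
Log2 fold change of siYAP/TAZ over siCtrl for the 7 tested genes, from the fit by group alone (circles) and the fit with the replicate block (diamonds), with bars of 1 standard error and filled symbols where the adjusted p was under 0.05. IL1A is filled in both fits, IL1B, CXCL8 and CCL20 are filled with the replicate block alone, and CXCL1, CXCL2 and CXCL3 are open in both.

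CXCL1, CXCL2 and CXCL3 encode closely related neutrophil chemokines that act mainly through CXCR2. No difference between the groups passed the test for any of them, by group alone or with the replicate block. CXCL1 (chr4:74735110-74737025, plus strand) was the most abundant member, with 1619, 401 and 1120 counts in the siCtrl libraries and 634, 714 and 530 counts in the siYAP/TAZ libraries. The lowest of its 6 libraries was a control, siCtrl replicate 2, and in the pair numbered 2 it was higher after depletion. The means were 290 ± 171 and 175 ± 53.2 CPM (SD, n = 3 each), a log2 fold change of -0.74 (95% confidence interval -1.63 to 0.16, edgeR adjusted p = 0.37, and 0.336 with the replicate block). CXCL1 passed without siCtrl replicate 2 (log2 fold change -1.10, edgeR adjusted p = 0.0176) and without both libraries of disagreeing labels (-1.37, adjusted p = 0.00489), and its log2 fold change was -0.22 without siCtrl replicate 1 (adjusted p = 0.825). With the groups of the titles it was -1.25 (edgeR adjusted p = 0.898).

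CXCL2 (chr4:74962757-74964913, minus strand) had 140, 74 and 89 counts in the siCtrl libraries and 79, 95 and 92 counts in the siYAP/TAZ libraries. Apart from siCtrl replicate 1, which was the highest, the groups lay within the same range. The log2 fold change was -0.21 (95% confidence interval -0.85 to 0.43, edgeR adjusted p = 0.751). CXCL3 (chr4:74902306-74904524, minus strand) had 130, 47 and 51 counts in the siCtrl libraries and 47, 50 and 55 counts in the siYAP/TAZ libraries. Again siCtrl replicate 1 alone was high, and the log2 fold change of -0.62 (95% confidence interval -1.53 to 0.28, edgeR adjusted p = 0.457) became 0.03 without it (adjusted p = 0.976). For CXCL2 the value without siCtrl replicate 1 was 0.12 (adjusted p = 0.881), so both genes changed sign with that 1 library. With the groups of the titles the log2 fold change was -0.52 for CXCL2 and -0.74 for CXCL3 (edgeR adjusted p = 0.898 for each).

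The transcripts of these chemokines resemble each other, and how reads that match several genes were counted is not given in the sources used here. Of the 50-base stretches in the last 400 bases of the CXCL1 transcript, 13.1% (46 of 351) also occurred anywhere in the CXCL2 transcript. None occurred anywhere in the CXCL3 or CXCL8 transcript. The counts of CXCL1 and CXCL2 are therefore uncertain, by an amount that this share does not bound. Summed over CXCL1, CXCL2 and CXCL3, the levels were 543, 161 and 317 CPM in siCtrl replicates 1, 2 and 3 and 172, 284 and 184 CPM in siYAP/TAZ replicates 1, 2 and 3, with means of 340 ± 192 and 213 ± 61.3 CPM (SD, n = 3 each). CXCL1 made up 76.8% to 88.9% of that sum in every library. The summed levels overlapped between the groups as CXCL1 did, with siCtrl replicate 2 the lowest of all.

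CXCL8, interleukin-8, signals through both CXCR1 and CXCR2 and opens the chemokine cluster at chr4:74606236-74609433 on the plus strand. It had 202, 113 and 283 counts in the siCtrl libraries and 63, 111 and 63 counts in the siYAP/TAZ libraries. In the pairs numbered 1 and 3 the level fell by 2.02 and 2.05 on the log2 scale, while in the pair numbered 2 it was about equal, at 34.9 CPM in siCtrl and 36.7 CPM in siYAP/TAZ. The means were 54.7 ± 18.4 and 22.7 ± 12.2 CPM (SD, n = 3 each), or 41.5% of control (log2 fold change -1.30, SE 0.36, 95% confidence interval -2.11 to -0.48). The difference did not pass by group alone (edgeR adjusted p = 0.106) and passed with the replicate block (log2 fold change -1.33, adjusted p = 0.0357). Both libraries of that pair are those with disagreeing labels, and without them the log2 fold change was -2.04 (edgeR adjusted p = 0.000553). Leaving out siCtrl replicate 2 alone gave -1.54 (adjusted p = 0.0115). The log2 fold change was -1.06 without siCtrl replicate 3 (edgeR adjusted p = 0.379) and -1.04 without siYAP/TAZ replicate 1 (adjusted p = 0.211). With the groups of the titles it was -1.34 (edgeR adjusted p = 0.898).

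The other chemokine genes of the chromosome 4 cluster were not detected at this depth. CXCL5, CXCL6, PPBP and PF4V1 had 0 counts in every library, and PF4 had 0 to 1. CXCL8 and the CXCL1 to CXCL3 genes were thus the measured genes of that cluster, and the stretches printed above held an NF-kB match in each of them. The part of that match in their levels was not tested.

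IL6, a cytokine that acts through the IL6R and IL6ST receptor chains, had 5, 2 and 3 counts in the siCtrl libraries and 2, 1 and 0 counts in the siYAP/TAZ libraries. In CPM every siYAP/TAZ library was below every siCtrl library, although siCtrl replicate 2 and siYAP/TAZ replicate 1 both had 2 counts. The counts of IL6 were at or near the floor of 3 counts, and the difference did not pass in a fit with no low-count filter (edgeR adjusted p = 0.495). No fold is given at such counts. STEAP1B and the antisense gene IL6-AS1 overlap IL6 on the opposite strand.

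CCL20 (chr2:228670455-228682280, plus strand) had 993, 254 and 274 counts in the siCtrl libraries and 386, 141 and 170 counts in the siYAP/TAZ libraries. Replicate 1 was the highest library in each group, at 285 and 87.5 CPM, and siYAP/TAZ replicate 1 exceeded siCtrl replicates 2 (78.4 CPM) and 3 (68.9 CPM). Within pairs the level fell by 1.71, 0.75 and 0.57 on the log2 scale for replicates 1, 2 and 3. The log2 fold change was -1.25 by group alone (SE 0.51, 95% confidence interval -2.40 to -0.11, edgeR adjusted p = 0.246) and -1.05 with the replicate block (SE 0.20, adjusted p = 0.00853). CCL20 was the 1 member of the 7 that also passed a test across the replicate numbers (edgeR adjusted p = 0.0142, a test chosen after seeing the data), beside 1.81% of all genes tested. Without siCtrl replicate 1 the log2 fold change by group was -0.28 (adjusted p = 0.719), and without both libraries of disagreeing labels it was -1.39 (adjusted p = 0.118). With the groups of the titles it was -0.92 (edgeR adjusted p = 0.898).

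A 3′ library gives about 1 read per transcript end whatever the transcript's length, so CPM values were compared between genes without division by length. In siCtrl cells the order was CXCL1 (290 CPM), CCL20 (144 CPM), IL1A (123 CPM), IL1B (111 CPM), CXCL8 (54.7 CPM), CXCL2 (28.5 CPM) and CXCL3 (21.6 CPM). Each gene's range over the 3 libraries overlapped that of the next gene in this order. Within each siCtrl library, however, CXCL1 was above CCL20, IL1B above CXCL8, CXCL8 above CXCL2 and CXCL2 above CXCL3. The order of CCL20 and IL1A, and that of IL1A and IL1B, changed between these libraries. In siYAP/TAZ cells the order was CXCL1 (175 CPM), CCL20 (60.1 CPM), IL1A (55.3 CPM), IL1B (37.6 CPM), CXCL2 (24.8 CPM), CXCL8 (22.7 CPM) and, lowest, CXCL3. There CXCL1 lay above the range of CCL20, and every later pair of neighbours overlapped, although CXCL8 was above CXCL3 within each siYAP/TAZ library. CXCL1 was exceeded by 3.73% of the 12510 genes tested in siCtrl cells and by 7.99% in siYAP/TAZ cells, and IL1B by 15.4% and 43.3%.

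The control libraries differed widely in these genes. The summed level of the 9 members was 1217, 453 and 657 CPM in siCtrl replicates 1, 2 and 3 and 349, 474 and 352 CPM in siYAP/TAZ replicates 1, 2 and 3. The sum in siCtrl replicate 2 was thus below that in siYAP/TAZ replicate 2, and the 3 controls spanned a wider range than the 3 depleted libraries. Of the 7 tested members, 6 were highest in siCtrl replicate 1, the exception being CXCL8, and 5 were lowest in siYAP/TAZ replicate 1, the exceptions being CXCL1 and CCL20. Whether culture, harvest or library preparation differed for siCtrl replicate 1 was not tested, since the labels give no such detail.

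**Figure D4:**
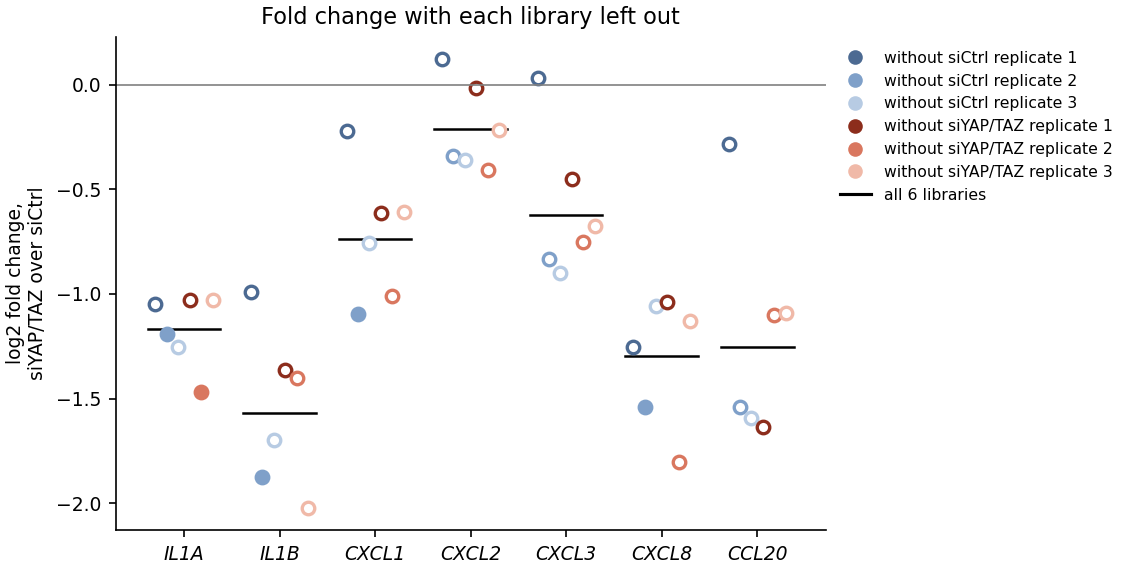
Log2 fold change of siYAP/TAZ over siCtrl for the 7 tested genes with all 6 libraries (bar) and with each library left out (circles, filled where the edgeR adjusted p was under 0.05). Leaving out siCtrl replicate 1 brings CXCL1, CXCL2, CXCL3 and CCL20 to values between -0.28 and 0.12, whereas IL1A stays between -1.47 and -1.03 throughout.

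A set of 5 tested genes outside the group had the profile most like the members, measured as the Pearson correlation over the 6 libraries with the mean standardised log2 CPM of the 7 tested members. They were NABP2 (r = 0.995), TENT4A (r = 0.980), MGME1 (r = 0.974), SLC16A3 (r = 0.972) and FAM136A (r = 0.971). NABP2 encodes a single-stranded DNA binding protein and SLC16A3 a lactate transporter. All 5 were slightly lower after depletion, with log2 fold changes of -0.51 to -0.10, and none passed the test (edgeR adjusted p of 0.192 to 0.74). These correlations describe libraries that share 2 groups and 3 replicate numbers.

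The wider pathway was examined through 105 further genes in 11 lists, of which 67 were tested and 27 stayed at or under 3 counts in every library. In the comparison by group alone, 1 of 67 was lower (IL18) and 1 of 67 was higher (IL1R1), beside 1.22% and 0.743% of all genes tested. With the replicate block 4 were lower (IL18, IL1RAP, TNIP1 and ZFP36L1) and 8 were higher (IL1R1, IL1R2, NFKBIZ, BIRC3, IL6R, LIFR, JAK1 and CSF1), beside 5.44% and 4.66%. The median log2 fold change over the 67 genes was 0.08, against -1.17 over the 7 tested members, and 27 were negative and 40 positive.

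**Figure D5:**
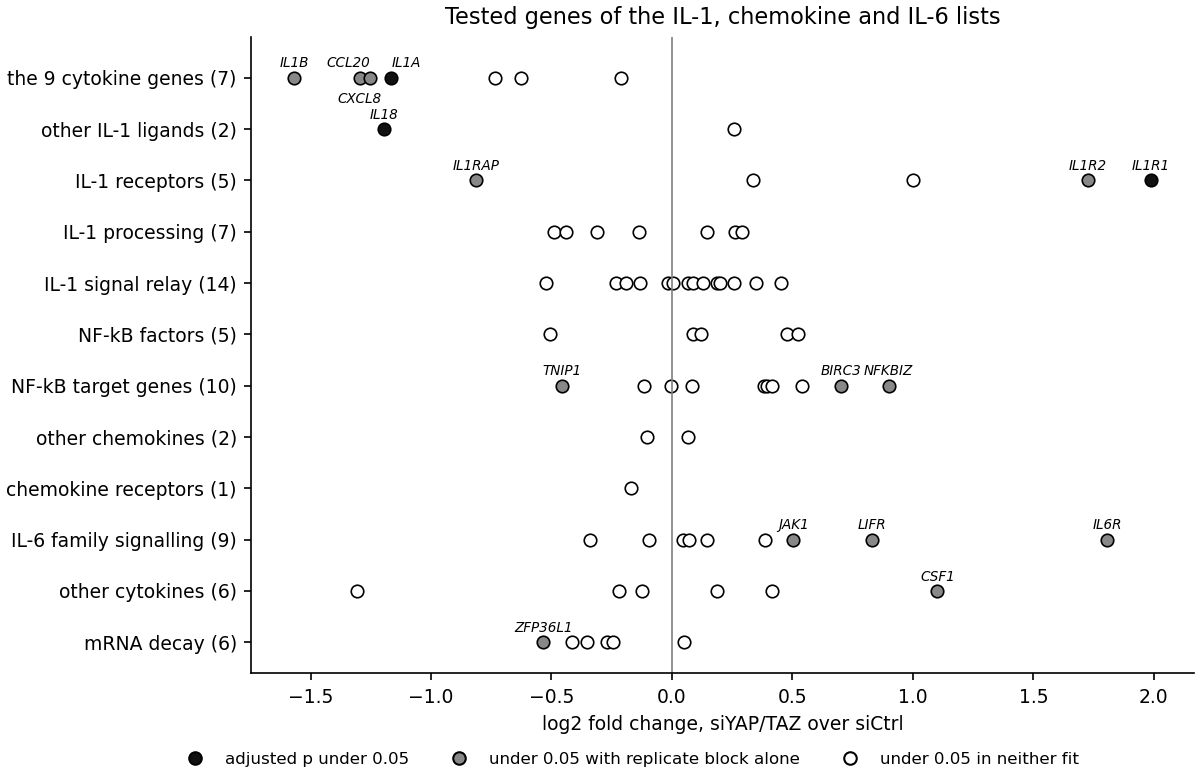
Log2 fold change of siYAP/TAZ over siCtrl for the tested genes of each list, with the number tested in brackets, filled black where the edgeR adjusted p was under 0.05 by group alone and grey where it was under 0.05 with the replicate block alone. The 7 tested genes of the 9 cytokine genes in the top line lie to the left of 0, the receptors IL1R1, IL1R2 and IL6R to the right, and the genes of the signal relay around 0.

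Of the other interleukin-1 family ligands, IL18 was the 1 gene that passed. It encodes interleukin-18, which caspase-1 cleaves as it does interleukin-1 beta, and it had 291, 294 and 366 counts in the siCtrl libraries and 218, 99 and 123 counts in the siYAP/TAZ libraries. All siYAP/TAZ libraries were below all siCtrl libraries, and the level fell from 88.8 ± 4.53 to 38.5 ± 9.43 CPM (SD, n = 3 each, log2 fold change -1.20, SE 0.18, edgeR adjusted p = 0.0151). The call was lost without siCtrl replicate 3 (adjusted p = 0.0971), siYAP/TAZ replicate 2 (0.0606) or siYAP/TAZ replicate 3 (0.11). IL18BP, which neutralises interleukin-18, did not pass (log2 fold change 0.26, edgeR adjusted p = 0.41), and 6 of the 9 genes of this list were at the floor throughout. NUMA1 overlaps IL18BP on the opposite strand.

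Among the receptors, IL1R1 was higher by group alone, IL1R2 was higher and IL1RAP lower with the replicate block, and the other 2 tested genes did not pass. IL1R1, the signalling receptor for both interleukin-1 ligands, had 58, 51 and 35 counts in the siCtrl libraries and 219, 147 and 236 counts in the siYAP/TAZ libraries. The groups were well apart, and the level rose from 13.7 ± 4.30 to 54.1 ± 8.72 CPM (SD, n = 3 each), 3.97-fold (log2 fold change 1.99, SE 0.25, 95% confidence interval 1.43 to 2.54, edgeR adjusted p = 0.00879). The call was lost without siYAP/TAZ replicate 3 alone (log2 fold change 1.85, adjusted p = 0.0675). IL1R2, a decoy receptor, had 16, 51 and 7 counts in the siCtrl libraries and 46, 168 and 26 counts in the siYAP/TAZ libraries. Replicate 2 was high in both groups, which therefore overlapped, while each pair showed a higher level after depletion, so IL1R2 passed with the replicate block (log2 fold change 1.66, adjusted p = 0.00308) and not by group alone (1.73, edgeR adjusted p = 0.334).

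IL1RAP, the accessory chain that the signalling receptor needs, had 231, 106 and 289 counts in the siCtrl libraries and 159, 82 and 127 counts in the siYAP/TAZ libraries. It was lower in 3 of 3 pairs and passed with the replicate block (log2 fold change -0.78, edgeR adjusted p = 0.0179) but not by group alone (-0.81, adjusted p = 0.171). Of the 5 tested receptor genes 4 had positive log2 fold changes, and IL1RAP was the most abundant of them by its mean over the libraries.

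None of the 7 tested processing genes and none of the 14 genes of the signal relay passed in either edgeR fit or in DESeq2, and 0 of them had an unadjusted edgeR p under 0.05. Their median log2 fold changes were -0.14 and 0.08. CAPN2, a calpain subunit and the most abundant processing gene, was at 269 ± 20.2 and 245 ± 13.9 CPM (SD, n = 3 each), a log2 fold change of -0.14 (95% confidence interval -0.42 to 0.14). TAB2, an adaptor of the kinase TAK1 and the most abundant relay gene, had a log2 fold change of -0.19 (95% confidence interval -0.56 to 0.18). The intervals of both leave room for modest differences.

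The NF-kB subunit genes did not pass either, with 0 of 5 in both edgeR fits and in DESeq2 and 1 (RELB, higher) at an unadjusted p under 0.05. NFKB1, the most abundant of them, was at 143 ± 6.03 CPM in siCtrl and 152 ± 22.5 CPM in siYAP/TAZ cells (SD, n = 3 each, log2 fold change 0.09, 95% confidence interval -0.23 to 0.40). Among 10 target and feedback genes of NF-kB, 0 passed by group alone in edgeR (1 lower and 2 higher at an unadjusted p under 0.05, beside 9.27% and 8.4% of all genes, and NFKBIZ alone in DESeq2, beside 1.96% called higher), and with the replicate block NFKBIZ and BIRC3 were higher and TNIP1 lower. NFKBIZ encodes a nuclear regulator of NF-kB target genes, and had 165, 207 and 121 counts in the siCtrl libraries and 324, 275 and 365 counts in the siYAP/TAZ libraries. Its groups did not overlap (log2 fold change 0.90, edgeR adjusted p = 0.0981, and 0.0179 with the replicate block). BIRC3, an inhibitor of apoptosis and ubiquitin ligase, was the most abundant gene of this list and had a log2 fold change of 0.85 with the block (adjusted p = 0.0109). TNIP1, a partner of the inhibitor TNFAIP3, had -0.47 (edgeR adjusted p = 0.0481). NXPE3 overlaps NFKBIZ on the same strand.

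Other chemokines were scarce, with 12 of 15 at the floor in every library and 0 of 2 tested genes past the threshold in edgeR or DESeq2, or at an unadjusted p under 0.05. CXCL16 was the most abundant of them by its counts, at 11.8 ± 1.83 and 10.9 ± 2.32 CPM (SD, n = 3 each, log2 fold change -0.10). MED11 overlaps the end of CXCL16 on the opposite strand. MED11 had 36, 41 and 61 counts in the siCtrl libraries, where CXCL16 had 36, 36 and 55. With the use of strand not given, whether reads of MED11 entered the CXCL16 count was not tested. The receptors of the member chemokines were low as well. CXCR1 had 3, 27 and 3 counts in the siCtrl libraries and 1, 19 and 1 in the siYAP/TAZ libraries, and CXCR2 had 1, 19 and 4 and then 2, 14 and 8, with replicate 2 the highest library of each group for both. Neither reached the filter. CCR6, the receptor of CCL20, was at 37.3 ± 3.57 and 33.2 ± 0.801 CPM (SD, n = 3 each, log2 fold change -0.17, 95% confidence interval -0.51 to 0.17, edgeR adjusted p = 0.61).

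Of the 9 tested genes of interleukin-6 family signalling 0 passed by group alone in edgeR (4 higher at an unadjusted p under 0.05, beside 8.4% of all genes, and IL6R alone in DESeq2, beside 1.96%), and 3 were higher with the replicate block. IL6R, the specific chain of the interleukin-6 receptor, had 101, 242 and 91 counts in the siCtrl libraries and 489, 394 and 730 counts in the siYAP/TAZ libraries. All siYAP/TAZ libraries were above all siCtrl libraries, at 147 ± 46.1 against 42.2 ± 28.3 CPM (SD, n = 3 each, log2 fold change 1.81, edgeR adjusted p = 0.056, and 0.00508 with the block). LIFR, the receptor for leukaemia inhibitory factor, and the kinase JAK1 had log2 fold changes of 0.92 (edgeR adjusted p = 0.046) and 0.51 (adjusted p = 0.04) with the block. IL6ST, the signalling chain shared by the family and its most abundant gene, was at 413 ± 76.7 and 434 ± 28.4 CPM (log2 fold change 0.07, 95% confidence interval -0.29 to 0.44).

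The remaining lists held a further 2 genes past the threshold with the block. CSF1, a macrophage growth factor, had 27, 23 and 29 counts in the siCtrl libraries and 56, 52 and 66 counts in the siYAP/TAZ libraries, and its groups did not overlap (log2 fold change 1.10, edgeR adjusted p = 0.0559, and 0.0208 with the block). It also passed in DESeq2 (DESeq2 adjusted p = 0.0374), beside 1.96% of genes called higher there. IL7, the most abundant of the other cytokines by its counts, had a log2 fold change of -0.22 (edgeR adjusted p = 0.496). ZC2HC1A overlaps IL7 on the opposite strand, with 181, 250 and 299 counts in the siCtrl libraries. IL7 had 179, 202 and 248 counts there. The use of strand is not given, and whether reads of ZC2HC1A entered the IL7 count was not tested. Among 6 regulators of decay of AU-rich mRNAs, a class that holds many of the members' transcripts, ZFP36L1 was lower with the block (log2 fold change -0.53, edgeR adjusted p = 0.0126), and ZFP36L2 was the most abundant and did not pass (0.05, adjusted p = 0.959 by group alone). The other 5 genes of that list did not pass in either fit. At an unadjusted edgeR p under 0.05, 2 of the 6 were lower (ZFP36L1 and ELAVL1) and 0 higher, beside 9.27% and 8.4% of all genes tested. ELAVL1 and HNRNPD passed as lower when siCtrl replicate 2 was left out and without both libraries of disagreeing labels.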

How the data were processed

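RNA of 6 MCF10A samples was sequenced from the 3′ end of polyadenylated RNA (QuantSeq FWD). The authors deposited raw counts per Entrez gene. Per the labels, reads were trimmed with cutadapt 4.2 and aligned to hg19 with Bowtie2 2.3.5.1, as the submitters' processing notes name them. The gene annotation and the use of strand are not given in the sources used here, and nothing in the labels says that libraries came from separate cultures, so p-values measure the spread between these libraries.

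The test on counts was edgeR's quasi-likelihood F test (version 4.0.16, in R 4.3.3). Genes of low count were removed by the default rule, libraries were scaled by TMM, and group was the single term. Benjamini-Hochberg adjustment ran over the 12510 genes left, which held 99.5% of counts. An adjusted p under 0.05 was the threshold, called passing. Standard errors came from the fold change and its F statistic. Symbols came from the RefSeq table of GRCh38.p14 (23308 of 23459 IDs matched). Gene coordinates and overlaps came from GENCODE 44 lifted to GRCh37, the coordinates of hg19. Sequence identity was counted on global alignments (Biopython 1.88).

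Replicate numbers come from the sample descriptions. Deviations from the group means correlated between same-numbered libraries (r = 0.416, 0.345 and 0.129 over 12510 genes, which are not independent). As each r was over 0.1, the numbers were treated as pairs, and blocked values stand where a call changes.

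The members, the lists and the alternatives were chosen with earlier results of these data known. Named genes were all 9 members, YAP1 and WWTR1, the genes between the members in both clusters, every gene of the 11 pathway lists that passed with or without the block, the most abundant measured gene of each such list, and the 5 most similar genes. Other genes named for overlap or replicate pattern were chosen after their values were seen. The fit was repeated with other scaling (RLE, or library size only), without the low-count filter or with a floor of 50 counts on average, with robust dispersion, with the replicate block, with the titles' groups, without both libraries of disagreeing labels, without each library, and in DESeq2 1.42.0. Within groups, chi-square per degree of freedom between libraries was at least 5.37, so all were kept as separate replicates.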

Additional observations from a re-analysis of the deposited data

How the results depend on the processing

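The count of members lower was 1 by group alone and changed with several choices. It was 2 in DESeq2 (IL1A and CXCL8), 3 with no low-count filter (IL1A, IL1B and CXCL8), 4 with the replicate block, 4 without both libraries of disagreeing labels and 0 with groups by title, a grouping under which edgeR called 0 genes in all (464 at an unadjusted p under 0.05). Leaving out 1 library gave 0 to 4 members lower, with 4 when siCtrl replicate 2 was left out. No alternative gave a member as higher. The list genes lower, 1 by group alone, came to 2 in DESeq2, 2 with no low-count filter, 4 with the replicate block, 5 without both libraries of disagreeing labels, 0 with groups by title and 0 to 6 with 1 library left out. The list genes higher, 1 by group alone, came to 4 in DESeq2, 2 with library size alone, 4 with no low-count filter, 8 with the replicate block, 9 without both libraries, 0 with groups by title and 0 to 10 with 1 library left out. Of YAP1 and WWTR1, 2 were called lower by group alone, 0 with groups by title and 0 to 2 with 1 library left out. Over all genes the number called was 245 by group alone, 587 in DESeq2, 556 with no low-count filter, 1263 with the replicate block and 1183 without both libraries of disagreeing labels.

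Signs changed for 3 values. With 1 library left out, the log2 fold change of CXCL2 ran from -0.41 to 0.12 and that of CXCL3 from -0.90 to 0.032, both turning without siCtrl replicate 1. IL1R2 turned to -0.87 with groups by title. The cause was not tested. RLE scaling, the floor of 50 counts and robust dispersion changed no count of members or list genes, and IL1A passed in 10 of 15 alternatives. IL6 and IL1RN did not pass with no low-count filter.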

Other observations

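CSF3, the granulocyte growth factor and a neutrophil-directed product like the CXC chemokines, was not a member and had 249, 65 and 170 counts in siCtrl replicates 1, 2 and 3 and 71, 77 and 49 counts in siYAP/TAZ replicates 1, 2 and 3. CSF3 did not pass by group alone (log2 fold change -1.31, edgeR adjusted p = 0.148) or with the replicate block (-1.24, adjusted p = 0.0615). It passed as lower with no low-count filter (edgeR adjusted p = 0.0448), in DESeq2, when siCtrl replicate 2 was left out and without both libraries of disagreeing labels. It was chosen after its values were seen.

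Some receptor and feedback genes shared a pattern over the replicate numbers in both groups. Of those named here, IL1RL1, CXCR1 and CXCR2 did not reach the low-count filter and were not tested. SOCS3, a feedback inhibitor of cytokine receptors, had 21, 95 and 33 counts in the siCtrl libraries and 11, 58 and 49 counts in the siYAP/TAZ libraries, and IL1RL1, the receptor for interleukin-33, had 1, 12 and 5 counts and then 5, 15 and 3. Replicate 2 was the highest library of each group for both genes, as it was for CXCR1, CXCR2 and IL1R2. PTPRC, the leukocyte marker CD45, had 2, 10 and 3 counts and then 2, 8 and 3, and its part in these values was not tested.

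PECAM1, an endothelial and platelet adhesion molecule, had 6, 4 and 4 counts in the siCtrl libraries and 14, 29 and 18 counts in the siYAP/TAZ libraries (log2 fold change 2.10, edgeR adjusted p = 0.0785, and 0.0245 with the replicate block), while VWF had 4 to 6 counts in every library and PDGFRA had 551 to 683 counts and did not pass (log2 fold change 0.05, edgeR adjusted p = 0.871).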
